A study of Mus musculus with 24 samples.

Results

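The expression of 10 genes enriched in granule cells of the dentate gyrus was followed through bulk mRNA sequencing of the mouse hippocampus. The genes were Prox1, Glis3, Dsp, Npnt, C1ql2, C1ql3, Tdo2, Lct, Plk5 and Fam163b, taken by name from the 46983 genes of the count table. They were picked as granule cell genes and in part because their expression was lower in Fkbp5Nex mice. Differences between genotypes are therefore given for these 10 genes as a description, without a test.

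Tissue came from 24 adult female mice on a C57BL/6 background, in 4 groups of 6. Fkbp5lox/lox mice, the littermate controls, have Fkbp5 alleles flanked by loxP sites but no Cre recombinase. Fkbp5Nex mice carry the same alleles together with Cre recombinase driven from the Nex (Neurod6) locus, which deletes Fkbp5, the gene of the glucocorticoid receptor co-chaperone FKBP51, in glutamatergic neurons of the forebrain. By the methods of the study this deletion reaches the pyramidal neurons of the hippocampus but spares the dentate gyrus. In each genotype, 6 mice were reared under limited bedding and nesting from postnatal day 2 to 9, termed early life stress (ELS), and 6 under control conditions. All mice went through behavioural tests from the age of 6 months and an MRI scan before punches of 1 mm diameter were taken from the dorsal and the ventral hippocampus.

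Granule cells are the principal excitatory neurons of the dentate gyrus. They receive the perforant path from the entorhinal cortex and send their axons, the mossy fibres, to hilar mossy cells and to pyramidal neurons of CA3. The dentate gyrus is one of the few regions of the rodent brain in which neurons continue to be born in adult life, and its cells express glucocorticoid and mineralocorticoid receptors. Among the 10 genes, Prox1 encodes the homeodomain transcription factor that specifies and maintains granule cell identity, and Glis3 a zinc finger transcription factor. Dsp encodes desmoplakin, a protein that anchors intermediate filaments to cell junctions, and Npnt the extracellular matrix protein nephronectin. C1ql2 and C1ql3 encode secreted C1q-like proteins that organise synapses, including those of the mossy fibres. Tdo2 encodes tryptophan dioxygenase, the first enzyme of the kynurenine pathway, Lct lactase, and Plk5 a member of the polo-like kinase family that is expressed in brain. Fam163b is a further gene of this list.

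Sequence immediately before the annotated start of 4 of the genes shows how unlike their proximal promoters are, with 1 gene for each role (a transcription factor, a matrix protein, a synaptic protein and an enzyme). Each window holds the 250 bases upstream of a RefSeq start on GRCm38.p6, is written 5′ to 3′ on the strand of the gene and contains no annotated exon. Capitals mark the E-box CANNTG, the core motif of basic helix-loop-helix factors, a class that includes NEX itself.
Prox1, chr1:190170828-190171077, minus strand: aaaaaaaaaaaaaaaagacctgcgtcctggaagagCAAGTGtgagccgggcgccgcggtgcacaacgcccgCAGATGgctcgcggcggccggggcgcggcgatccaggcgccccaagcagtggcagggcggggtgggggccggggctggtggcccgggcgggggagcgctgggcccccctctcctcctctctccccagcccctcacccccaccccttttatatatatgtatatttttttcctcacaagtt
Npnt, chr3:132950292-132950541, minus strand: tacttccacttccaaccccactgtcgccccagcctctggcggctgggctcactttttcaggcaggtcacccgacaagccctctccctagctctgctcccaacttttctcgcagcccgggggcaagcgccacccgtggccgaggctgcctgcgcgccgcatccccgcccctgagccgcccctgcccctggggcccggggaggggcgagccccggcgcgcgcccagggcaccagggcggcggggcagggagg
C1ql2, chr1:120340332-120340581, plus strand: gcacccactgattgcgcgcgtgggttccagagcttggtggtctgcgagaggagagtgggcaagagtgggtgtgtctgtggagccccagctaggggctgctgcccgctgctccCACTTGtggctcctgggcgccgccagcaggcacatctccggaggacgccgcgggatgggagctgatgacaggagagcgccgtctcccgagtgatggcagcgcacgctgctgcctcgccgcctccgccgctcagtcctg
Lct, chr1:128328319-128328568, minus strand: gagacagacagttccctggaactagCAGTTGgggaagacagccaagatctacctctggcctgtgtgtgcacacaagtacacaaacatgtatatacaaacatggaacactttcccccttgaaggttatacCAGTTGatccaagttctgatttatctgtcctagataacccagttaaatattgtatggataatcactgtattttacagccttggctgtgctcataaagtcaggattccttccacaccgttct
Prox1 carried 2 E-boxes in this window, one of them CAGATG, a form bound by neurogenic factors. Lct carried 2 and C1ql2 1, whereas the Npnt window shown held none. A second Npnt window, from 132949815 to 132950064 on chromosome 3, overlaps an exon and is not shown, and it held 2 (CACCTG). All 10 genes were matched in RefSeq, with 12 windows in all, and 8 of these windows held an E-box on either strand, beside 66.2% of 32536 windows over all genes. The windows of the 10 genes had a median GC content of 67.6%, compared with 52.4% over all genes, and ranged from 42.8% (Lct) to 75.6% (Glis3). A match is a stretch of letters and not a measured binding site, and no match says nothing about the factor.

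The hippocampal libraries contained between 18347283 and 26555623 counted reads, and the 10 genes between 36 and 7500 reads per mouse, so each was measured well above the filter of 10 reads in every mouse. All 10 passed the filter, which left 16209 genes. Fkbp5 read counts matched the genotype label of every mouse, with at most 26.5 CPM (read counts scaled to library size by the TMM method) in Fkbp5Nex and at least 47.7 CPM in Fkbp5lox/lox mice. Markers of CA1, CA2 and CA3 pyramidal neurons were detected in all libraries, and so were those of other tissue. The summed level of 6 choroid plexus genes ranged from 14.4 to 4564 CPM between mice, with medians of 887 and 533 CPM in the Fkbp5lox/lox control and ELS groups and 52.3 and 143 CPM in the Fkbp5Nex groups. Far from the rest of their groups stood mouse 8 (Fkbp5lox/lox ELS), mouse 12 (Fkbp5Nex control) and mouse 60 (Fkbp5Nex ELS). Mouse 8 had the highest level of 9 of the 10 genes among all 24 mice, and mouse 12 that of the remaining gene, Glis3. Results are given with and without these mice.

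Measured per kilobase of exon, which allows levels of different genes to be compared, C1ql2 was the highest of the 10 genes in Fkbp5lox/lox mice, with 40.9 ± 19.9 CPM per kilobase (SD, n = 12). Fam163b followed with 33.7 ± 12.2, C1ql3 with 16.0 ± 7.09 and Prox1 with 14 ± 6.78 CPM per kilobase. Plk5 (6.84 ± 3.96), Npnt (5.59 ± 2.88), Lct (4.25 ± 1.89), Dsp (3.67 ± 1.96), Glis3 (2.85 ± 1.09) and Tdo2 (2.62 ± 1.55) formed the lower part of the order on the same scale. Neighbours in this order differed by less than their SD between mice, except for the steps from Fam163b to C1ql3 and from Prox1 to Plk5. Prox1 lies on chromosome 1 of GRCm38 from 190118035 to 190170714 on the minus strand and is overlapped by the antisense genes Prox1os and Gm28172. C1ql3, Npnt, Dsp and Glis3 also overlap other annotated genes, and since it is not stated whether reads were counted by strand, their values may include reads of these neighbours. C1ql2, Fam163b, Plk5, Lct and Tdo2 overlap no other gene in GENCODE vM21.

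The transcription factors of the list were lower in most Fkbp5Nex mice. Prox1 ranged from 64 to 278 CPM with a median of 107 CPM in the 12 Fkbp5lox/lox mice, and from 34.1 to 196 CPM with a median of 51.7 CPM in the 12 Fkbp5Nex mice. For Glis3 the lowest, median and highest levels were 15.3, 23.3 and 51.3 CPM in Fkbp5lox/lox mice and 7.78, 11.4 and 53.0 CPM in Fkbp5Nex mice. For both genes, 8 Fkbp5Nex mice were below every Fkbp5lox/lox mouse, while mice 12 and 60 were above the Fkbp5lox/lox median. The fitted log2 fold change (Fkbp5Nex minus Fkbp5lox/lox) was -0.50 for Prox1 (SE 0.07) and -0.49 for Glis3 (SE 0.08). The fit included surrogate variables, which stand for variation between mice beyond the groups. SEs in this and the next paragraphs leave out the variation that these variables took up and are not a test of genotype. Without mice 8, 12 and 60 the log2 fold change was -0.75 for Prox1 and -0.79 for Glis3. Without mouse 12 alone it was -0.27 for Prox1 and -0.22 for Glis3, with the surrogate variables estimated again in each case.

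Dsp and Npnt, the junction and matrix genes, were also lower. Dsp ranged from 16.0 to 83.6 CPM (median 28.6) in Fkbp5lox/lox mice and from 5.16 to 30.9 CPM (median 11.9) in Fkbp5Nex mice, and 10 of the 12 Fkbp5Nex mice lay below all Fkbp5lox/lox mice. Its log2 fold change of -1.09 (SE 0.14) was the most negative of the 10 genes. Npnt ranged from 11.4 to 66.3 CPM (median 24.5) and from 7.63 to 38.9 CPM (median 12.0), with a log2 fold change of -0.70 (SE 0.09). Here 5 Fkbp5Nex mice were below the Fkbp5lox/lox range, since the lowest Fkbp5lox/lox animal, mouse 72, had a level similar to theirs. Without the 3 mice the values were -1.49 for Dsp and -0.99 for Npnt.

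The 2 genes of secreted synaptic proteins differed from one another. C1ql2 ranged from 48.2 to 196 CPM (median 67.8) in Fkbp5lox/lox mice and from 14.9 to 169 CPM (median 39.0) in Fkbp5Nex mice, and 8 Fkbp5Nex mice fell below the Fkbp5lox/lox range. C1ql3 overlapped almost entirely, with 20.3 to 82.8 CPM (median 33.6) and 11.2 to 53.6 CPM (median 29.8), and 1 Fkbp5Nex mouse below the Fkbp5lox/lox range. The log2 fold changes were -0.45 (SE 0.12) for C1ql2 and -0.26 (SE 0.10) for C1ql3. Both values changed when single animals were left out and the surrogate variables estimated again. That of C1ql2 was -0.12 without mouse 12, and that of C1ql3 was between -0.41 without mouse 44 and -0.06 without mouse 30, and -0.10 without mouse 12 or mouse 52.

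The enzyme genes Tdo2 and Lct, and Plk5 of the polo-like kinase family, had lower medians in Fkbp5Nex mice. Tdo2 ranged from 2.79 to 25.2 CPM (median 9.63) in Fkbp5lox/lox mice and from 1.77 to 9.32 CPM (median 4.13) in Fkbp5Nex mice, none of which exceeded the Fkbp5lox/lox median, and its log2 fold change was -0.89 (SE 0.17), or -0.57 without mouse 52. Lct had medians of 27.3 and 13.9 CPM and a log2 fold change of -0.58 (SE 0.16), with 2 Fkbp5Nex mice below the Fkbp5lox/lox range. For Plk5, with medians of 16.6 and 9.68 CPM, no Fkbp5Nex mouse was below the range of 3.92 to 48.4 CPM in Fkbp5lox/lox mice. Its log2 fold change of -0.24 (SE 0.15) became 0.23 without mouse 12, although that animal had the highest Plk5 level of the Fkbp5Nex mice (32.8 CPM). The surrogate variables were estimated again in that run, so the direction for Plk5 depended on the fit. Fam163b had medians of 95.9 and 57.9 CPM, 7 Fkbp5Nex mice below the Fkbp5lox/lox range and a log2 fold change of -0.51 (SE 0.09).

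Over the list, the log2 fold change for genotype was negative for all 10 genes, with a median of -0.51, -0.74 without mice 8, 12 and 60 and -0.38 without mouse 12 alone, and the median over all genes tested was -0.0017. These values come from a fit with surrogate variables, which stand for variation between mice beyond the groups, and the median was -0.66 without them. The first surrogate variable had a Pearson correlation of -0.83 with the mean z-score of the 10 genes over 24 mice. The SEs given above therefore leave out variation between mice that these genes share. The genotype values are a description, since the genes were partly chosen on this contrast. Fewer granule cells in the punched tissue and less RNA per granule cell cannot be told apart in bulk samples.

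**Figure D1:**
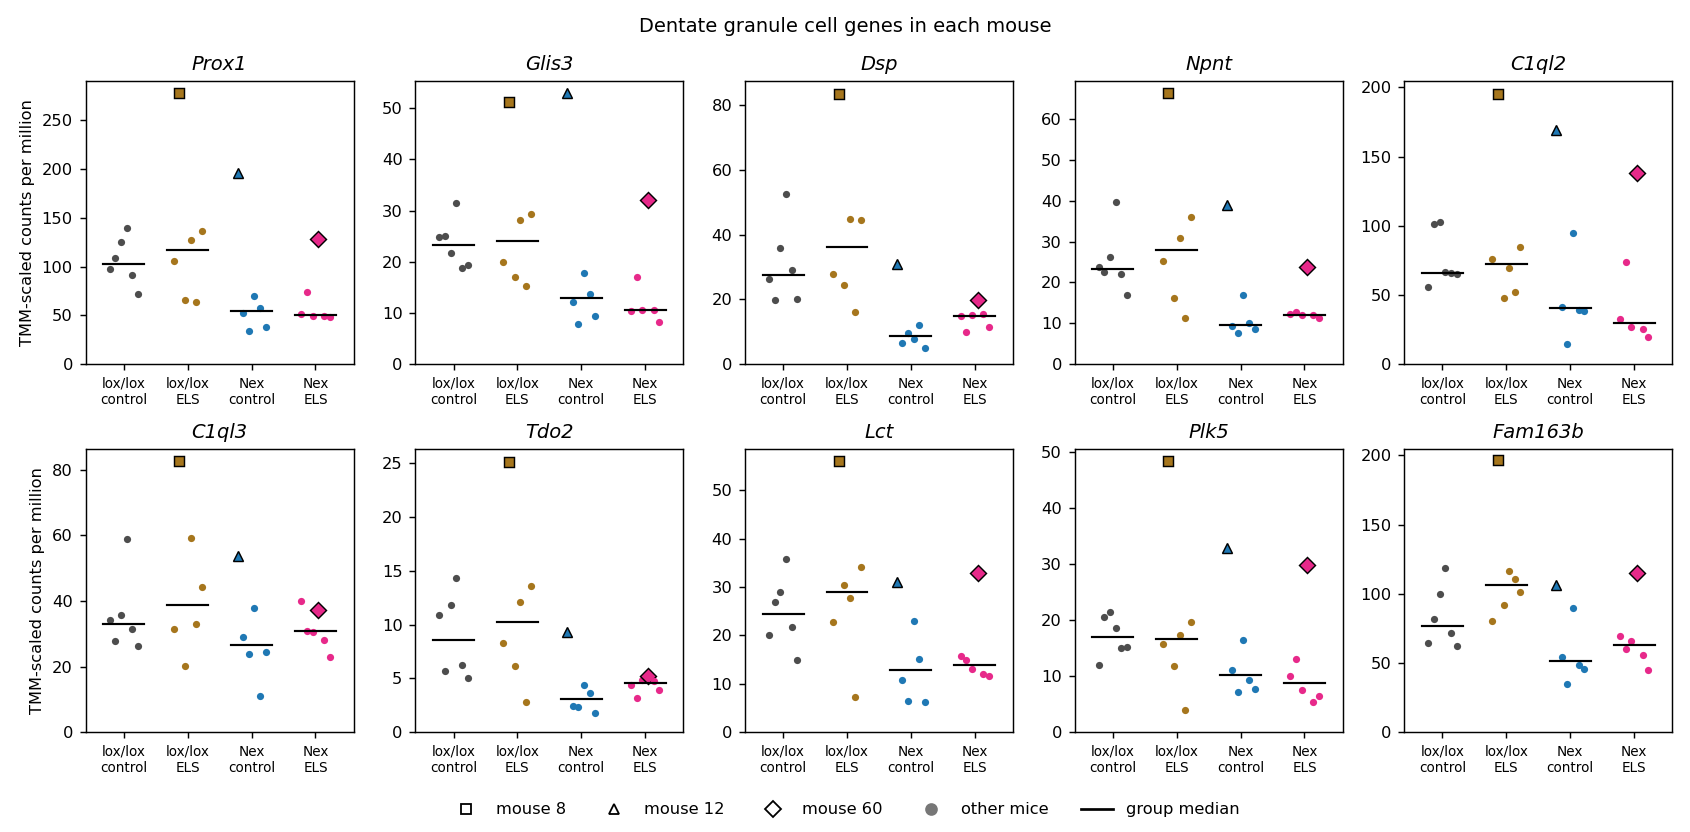
Level of each of the 10 genes in each mouse (CPM, linear axes from 0), by group of 6 mice, where lox/lox and Nex stand for Fkbp5lox/lox and Fkbp5Nex and lines mark group medians. Mice 8, 12 and 60 (square, triangle and diamond) lie above most mice of their groups. For most of the genes, most other Fkbp5Nex mice lie at the lower end of the Fkbp5lox/lox range or below it. For C1ql3 the genotypes overlap almost entirely, with 1 Fkbp5Nex mouse below the Fkbp5lox/lox range, and for Plk5 none is below it.

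The genes varied together from mouse to mouse, also within groups. After subtraction of the group means, the 45 pairs among the 10 genes had a median Pearson correlation of 0.80 over the 24 mice, from 0.49 between Dsp and C1ql2 to 0.97 between Prox1 and Glis3. Of these pairs, 5 were above 0.9 and 12 below 0.7. Npnt followed the others most closely, with a median correlation of 0.88, and C1ql3 least, with 0.65. These coefficients describe shared variation in the same libraries and carry no test. The highest mouse exceeded the lowest by 16.2-fold for Dsp, 14.2-fold for Tdo2, 13.1-fold for C1ql2 and 8.14-fold for Prox1.

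Some animals departed from this joint variation. Mouse 72 (Fkbp5lox/lox ELS) had the lowest Plk5 level of all 24 mice (3.92 CPM) and a low Lct level (7.30 CPM), but its Fam163b level was the fifth highest. Mouse 54 (Fkbp5Nex control) had the lowest C1ql3 level (11.2 CPM). The mean z-score over the 10 genes was 2.15 in mouse 8, 1.25 in mouse 12, 1.07 in mouse 44 (Fkbp5lox/lox control) and 0.72 in mouse 60, while it was lowest in mice 42 (-1.49) and 64 (-1.32), both Fkbp5Nex controls.

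**Figure D2:**
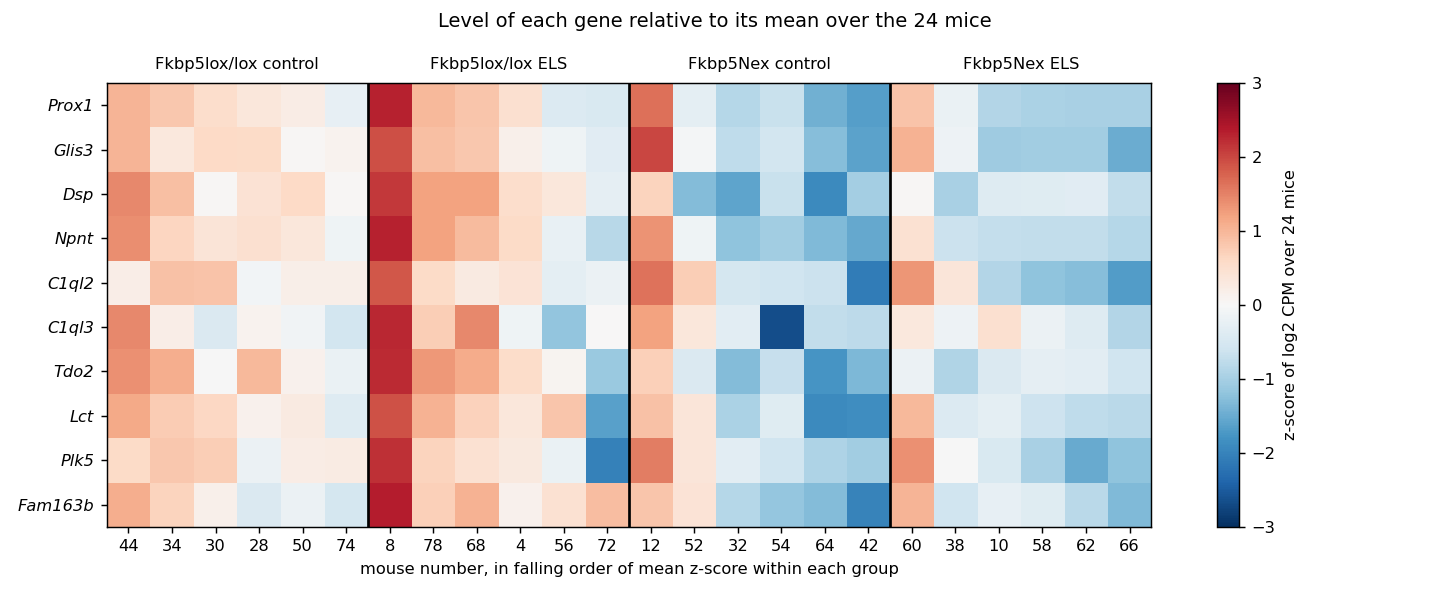
Level of each of the 10 genes (rows) in each of the 24 mice (columns, by mouse number and group) as z-score of log2 CPM over all mice. Columns tend to be of 1 colour from top to bottom, with mouse 8 highest (mean z-score 2.15) and mouse 42 lowest (-1.49), and the Plk5 and Lct fields of mouse 72 and the C1ql3 field of mouse 54 stand out from their columns.

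The 10 genes outside the list whose variation was most like the mean of the list, by the same measure over 24 mice, were Pde1b (r = 0.98), Ablim3 (0.97), Pitpnm2 (0.96), Fam84a (0.95), Stxbp6 (0.95), Jph1 (0.95), Capn3 (0.94), Cdc42ep4 (0.94), A830036E02Rik (0.94) and Rfx3 (0.94). Pde1b encodes a calcium and calmodulin dependent phosphodiesterase, Jph1 a junctophilin and Capn3 a calpain protease. Ablim3, Stxbp6 and Rfx3 were 3 of 14 further dentate granule cell genes that had been listed for comparison. Of 16199 genes, 42 had a correlation above 0.9, and the median over all was 0.02. When rank correlation was used instead, 5 of the 10 were still among the leading 10, and 7 were when group means were not subtracted.

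The 14 further dentate granule cell genes (Stxbp6, Trpc6, Calb1, Synpr, Igfbp5, Pdzd2, Dock10, Rfx3, Ablim3, Maml2, Sema5a, Lrrtm4, Smad3 and Ahcyl2) were compared between genotypes as genes outside the list. They too were listed with earlier results of these data known and are not a fresh test of genotype. Each of the 14 had a negative log2 fold change, with a median of -0.17, but none passed an FDR of 0.02 in edgeR's quasi-likelihood test, in which 0.123% of all genes were called lower, or in the fit without surrogate variables, with 0.0123% of all genes. At an unadjusted p below 0.05, 10 of the 14 were lower and none higher, beside 6.51% of all genes lower and 4.89% higher. This changed when single Fkbp5Nex controls were left out and the surrogate variables estimated again. Without mouse 12, 1 of the 14 was lower at that p, the median was -0.02 and 6 of the 14 were above 0. At that p, 3 of the 14 were lower without mouse 52, and 12 of the 14 without mice 8, 12 and 60 together. Without mouse 30, a Fkbp5lox/lox control, it was 6 of the 14. DESeq2 with the same surrogate variables called 3 of them lower (Trpc6, Stxbp6 and Rfx3), beside 0.352% of all genes. The most negative values were those of Trpc6, a cation channel (-0.39, SE 0.09, adjusted p = 0.079), Stxbp6, also known as amisyn, a SNARE-binding protein (-0.29, SE 0.07, adjusted p = 0.062), and Rfx3, a transcription factor of ciliated cells (-0.27, SE 0.06, adjusted p = 0.059). The values nearest to 0 were those of Maml2 (-0.08, SE 0.05, adjusted p = 0.58), Pdzd2 (-0.09, SE 0.05, adjusted p = 0.56) and Smad3 (-0.09, SE 0.04, adjusted p = 0.43). Without mouse 12 the values were -0.07 for Stxbp6, -0.03 for Rfx3, 0.0080 for Trpc6, 0.07 for Maml2, -0.02 for Pdzd2 and 0.04 for Smad3. Since these genes vary together with the 10 genes in the same libraries, they are not an independent sample of mice.

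Markers of other cells were examined beside these values. The 4 hilar mossy cell genes, which mark the other glutamatergic neuron of the dentate gyrus, all had negative log2 fold changes for genotype (median -0.36) and none passed the FDR of 0.02. Their summed level had medians of 64.2 and 87.2 CPM in Fkbp5lox/lox control and ELS mice and 56.8 and 49.2 CPM in Fkbp5Nex control and ELS mice. This sum rests mostly on Calb2, which in mouse 8 had 3490 reads, against 292 for Csf2rb2, 68 for Drd2 and 50 for Nmb. The median log2 fold change was -0.07 over 5 immature granule cell genes (4 of which could be tested), -0.06 over 5 CA1 genes, 0.06 over 4 CA2 genes, 0.11 over 5 CA3 genes and 0.04 over 4 genes of excitatory neurons, with none of them called. It was -0.07 for ventral hippocampus, 0.15 for thalamus, 0.08 for neocortex, 0.02 for inhibitory neurons, 0.12 for oligodendrocytes, 0.19 for astrocytes, 0.07 for microglia and 0.13 for endothelium, again with none called. The choroid plexus list, of which 3 of 6 genes could be tested, had a median of -1.66, and Ttr, the transthyretin gene of choroid plexus, was called lower (-3.04, adjusted p = 0.0012, edgeR). Without surrogate variables the median of this list was -0.63. Without mouse 12 or mouse 52 only 1 of all genes tested was called lower for genotype, and whether Ttr stayed called is not given here. The part of tissue composition in the genotype values was not tested.

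The animals that stood apart differed in these markers as well. Mouse 8 had the lowest summed CA1 level of all mice (84.5 CPM, highest 799 CPM in mouse 44), the highest hilar mossy cell level (144 CPM) and the highest level of 5 thalamic genes (221 CPM). Mouse 12 had the second highest hilar mossy cell level (140 CPM) and the highest astrocyte level (3623 CPM). Mouse 60 had the highest level of the 4 excitatory neuron genes (7012 CPM), and its hilar mossy cell level was 69.8 CPM. In all 3 mice choroid plexus genes were at or below 27.3 CPM, as they also were in mice 38, 44, 52 and 68. How far these differences contribute to the levels of the 10 genes was not tested.

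The ratio of a gene to Prox1 within a mouse takes out only variation that changes both by the same factor. It can still depend on the Prox1 level. For C1ql3 it was 27.4 and 29.0 in mice 12 and 60, which had most Prox1 of the Fkbp5Nex mice. It was 70.1 in mouse 42, which had least, but 19.3 in mouse 54. Dsp fell from a median of 29.5 reads per 100 Prox1 reads in Fkbp5lox/lox mice to 18.4 in Fkbp5Nex mice, and 6 of the 12 Fkbp5Nex mice were below the Fkbp5lox/lox range of 18.4 to 37.6. Tdo2 had medians of 9.19 and 6.30 reads per 100 Prox1 reads, and in all 6 Fkbp5Nex controls it was under the Fkbp5lox/lox median. The opposite held for C1ql3, with 33.5 and 54.9 reads per 100 Prox1 reads, and Fam163b, with 79.1 and 103, where 9 and 11 of the 12 Fkbp5Nex mice lay above the Fkbp5lox/lox median. Plk5 had medians of 15.7 and 18.7, and 9 of the 12 Fkbp5Nex mice, among them all 6 controls, lay above the Fkbp5lox/lox median. Npnt had medians of 23.9 and 22.4, and 9 of the 12 Fkbp5Nex mice lay below the Fkbp5lox/lox median, 3 of them below the range. Medians were 22.3 and 23.2 for Glis3, 71.8 and 74.2 for C1ql2 and 22.5 and 24.2 for Lct. These ratios come from the contrast used to choose the genes and are not tested.

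**Figure D3:**
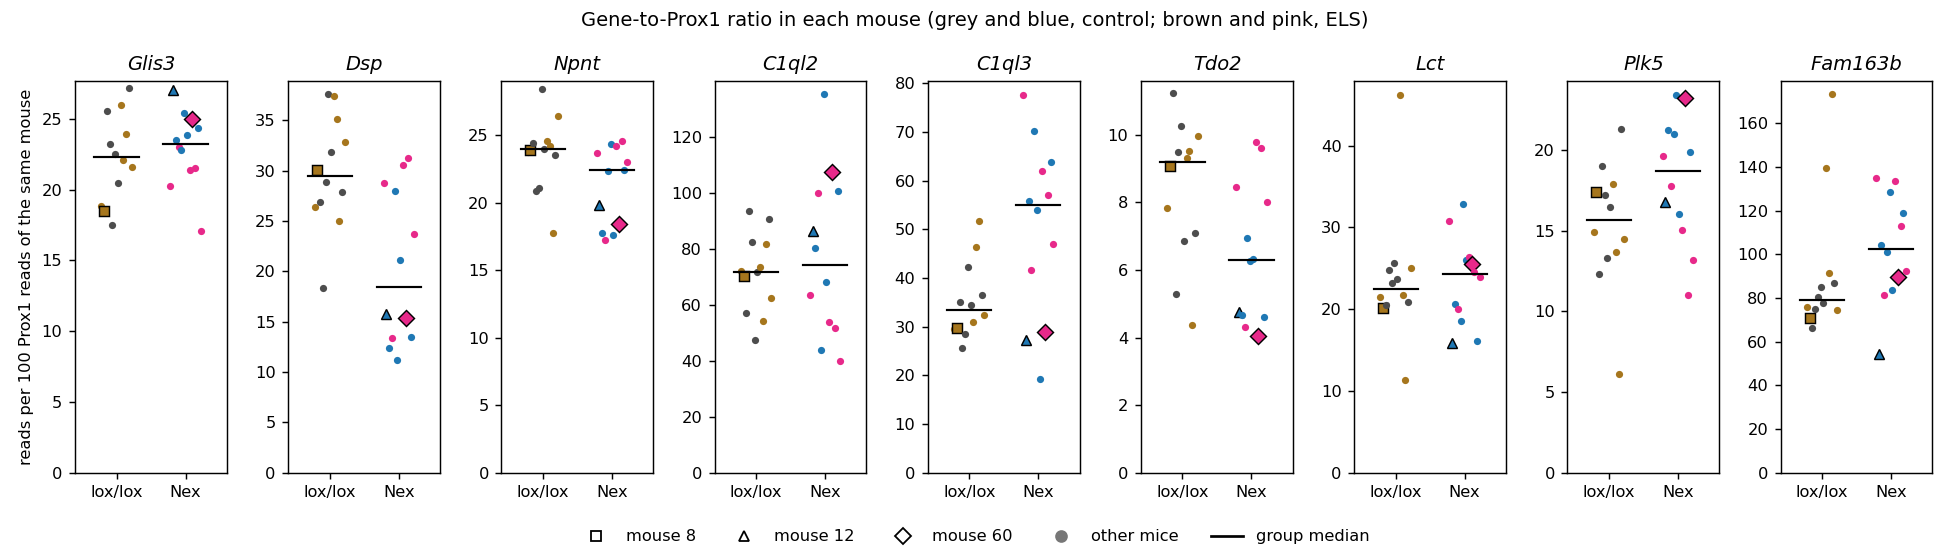
Reads of each gene per 100 Prox1 reads of the same mouse (linear axes from 0) in the 12 mice of each genotype, with lines at the genotype medians. Dsp and Tdo2 sit lower in Fkbp5Nex mice (medians 18.4 and 6.30, against 29.5 and 9.19), C1ql3 and Fam163b higher (54.9 and 103, against 33.5 and 79.1), and the other genes have medians closer together.

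ELS was not used to choose the genes, and its effect on them was therefore tested. In Fkbp5lox/lox mice, none of the 10 genes passed an FDR of 0.02 in edgeR's quasi-likelihood test (adjusted p from 0.94 to 0.98), and 0% of all 16209 genes were called. At an unadjusted p below 0.05, Npnt and Plk5 were lower and none of the 10 was higher, beside 2.17% of all genes lower and 2.81% higher. DESeq2 called none of the 10, and Npnt alone was below an unadjusted p of 0.05, beside 1.84% of all genes lower. Npnt levels ranged from 16.9 to 39.7 CPM (median 23.2) in controls and from 11.4 to 66.3 CPM (median 28.0) after ELS, so the groups overlapped completely, and its log2 fold change was -0.30 (SE 0.13). Plk5 ranged from 12.0 to 21.4 CPM (median 16.9) in controls and from 3.92 to 48.4 CPM (median 16.6) after ELS, the group with both extremes, with a log2 fold change of -0.48 (SE 0.22). Prox1 ranged from 71.7 to 140 CPM (median 103) and from 64 to 278 CPM (median 117), with a log2 fold change of -0.20 (SE 0.10).

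The direction of the ELS values in Fkbp5lox/lox mice turned with the surrogate variables. With them, 9 of the 10 genes had a negative log2 fold change, the median was -0.21, and only Fam163b was positive (0.26, SE 0.13). Without them, all 10 were positive, with a median of 0.30. The first surrogate variable, of which the groups explained 3.31% of the variance, had a Pearson correlation of -0.83 and a Spearman correlation of -0.83 with the mean z-score of the 10 genes over 24 mice, and of -0.78 (Pearson) without mice 8 and 42. It was estimated from the same libraries, and no test is given. Among the 14 further dentate genes, none was called for ELS in Fkbp5lox/lox mice, and 12 were negative with surrogate variables and 14 positive without. No direction of the ELS values can thus be given for these genes.

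In Fkbp5Nex mice, none of the 10 genes was called for ELS (adjusted p = 0.9995 for each, edgeR), against 0% of all genes. Fam163b was higher at an unadjusted p below 0.05, beside 1.55% of all genes higher and 1.2% lower, and DESeq2 had none of the 10 below that p, beside 1.26% of all genes higher. Fam163b ranged from 34.4 to 107 CPM (median 51.3) in Fkbp5Nex controls and from 44.9 to 115 CPM (median 63.2) after ELS, with overlapping groups and a log2 fold change of 0.31 (SE 0.14). Dsp had 5.16 to 30.9 CPM (median 8.68) and 9.90 to 19.8 CPM (median 15), and a log2 fold change of 0.45 (SE 0.24). All 10 values were positive with surrogate variables (median 0.23) and 5 of 10 without them (median -0.03).

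The interaction, that is the ELS effect in Fkbp5lox/lox mice minus that in Fkbp5Nex mice, was not detected for any of the 10 genes (adjusted p = 0.9994 for each, edgeR), and 0% of all genes were called. Npnt (-0.55, SE 0.19), Prox1 (-0.36, SE 0.14) and Dsp (-0.69, SE 0.31) were below an unadjusted p of 0.05, as were the same 3 in DESeq2 (1.75% of all genes negative), beside 2.01% of all genes with a negative and 1.95% with a positive value. The median over the 10 genes was -0.45 with surrogate variables, where all were negative, and 0.39 without them, where all were positive. Without mice 8, 12 and 60 the median was -0.25. The genotype difference, used to choose the genes and not tested, had a median of -0.65 in controls and -0.36 after ELS with surrogate variables, but -0.44 and -0.85 without them.

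**Figure D4:**
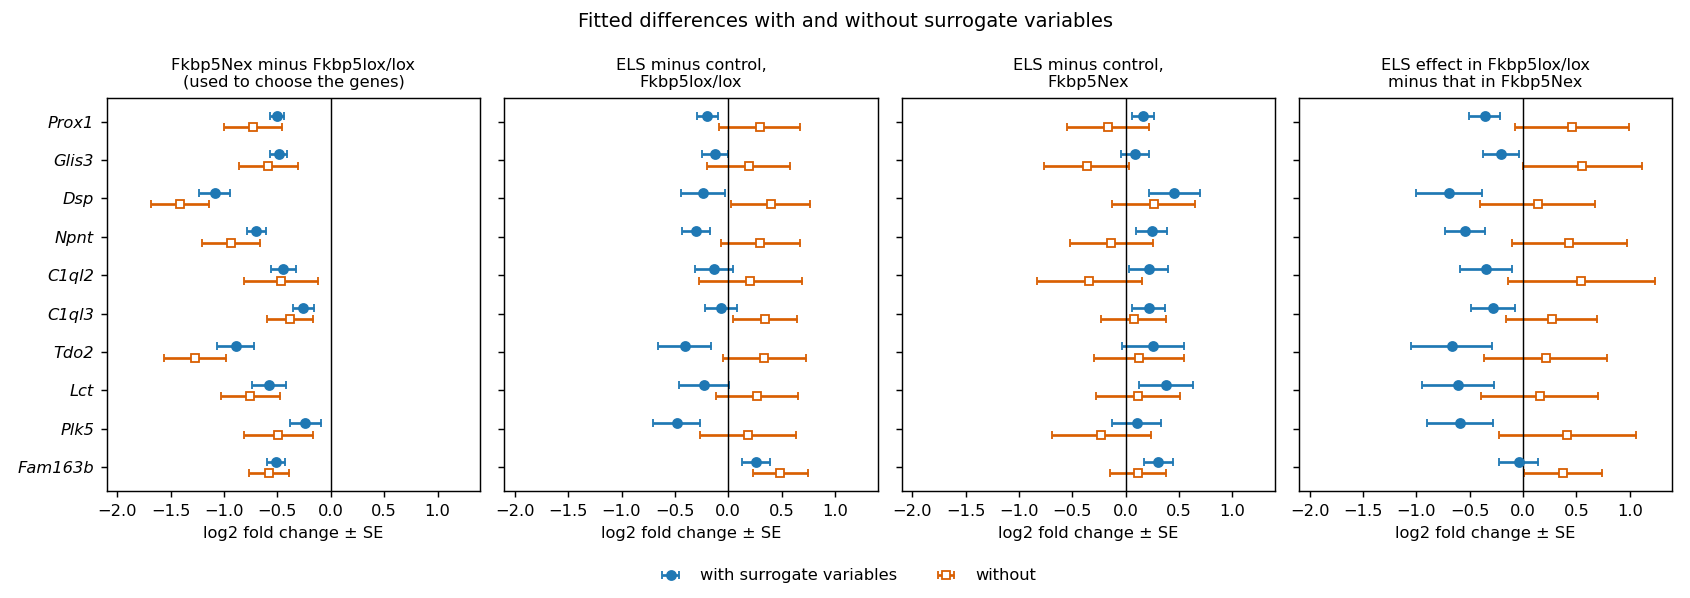
Fitted log2 fold change with its SE for each of the 10 genes in 4 comparisons, with (filled circles) and without (open squares) surrogate variables. For genotype both fits lie below 0, whereas for ELS in Fkbp5lox/lox mice and for the interaction the medians lie on opposite sides of 0 (-0.21 against 0.30, and -0.45 against 0.39).

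The level of Fkbp5 itself varied among Fkbp5Nex mice. It was 56.5 ± 5.27 CPM (SD, n = 12) in Fkbp5lox/lox mice and 14 ± 5.47 CPM (SD, n = 12) in Fkbp5Nex mice, with the highest Fkbp5Nex levels in mice 12 (26.5 CPM) and 60 (23.1 CPM), the same animals that had most Prox1. As deviations from the group means, Fkbp5 and Prox1 had a Pearson correlation of 0.92 (two-sided permutation test, 100000 permutations within groups, p = 0.00089, adjusted p = 0.00297) and a Spearman correlation of 0.76 (permutation p = 0.0108, adjusted p = 0.054) over the 12 Fkbp5Nex mice. Without mice 12 and 60 the Pearson correlation was 0.68. Adjustment was over 20 relations, 10 genes in each genotype, a comparison added after these levels had been seen.

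Other genes of the list gave similar values in Fkbp5Nex mice, but since the genes vary together these are not independent findings. No correlation with Fkbp5 is given for genes outside the list. The Pearson correlation with Fkbp5 was 0.94 for Glis3, 0.92 for C1ql2, 0.91 for Plk5, 0.89 for Npnt and 0.86 for Fam163b, all with a permutation adjusted p of 0.00297, and 0.78 for Lct (permutation adjusted p = 0.0126). It was lower for C1ql3 (0.66, permutation adjusted p = 0.106), Tdo2 (0.63, 0.125) and Dsp (0.55, 0.238), the gene with the largest genotype difference. None of the Spearman correlations passed 0.05 after adjustment (permutation adjusted p of 0.054 or more). When, for each gene, the 2 mice with the most extreme levels were left out, these were mice 12 and 60 for 7 genes, and the Pearson correlation in Fkbp5Nex mice was then between 0.42 (Lct) and 0.82 (C1ql2). For the others it was 0.07 for Dsp and 0.32 for Tdo2 without mice 12 and 64, and 0.45 for C1ql3 without mice 12 and 54. In the 12 Fkbp5lox/lox mice it was between -0.30 (Glis3) and 0.14 (Fam163b), with permutation adjusted p of 0.325 or more, and a difference of the correlations between genotypes was not tested.

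**Figure D5:**
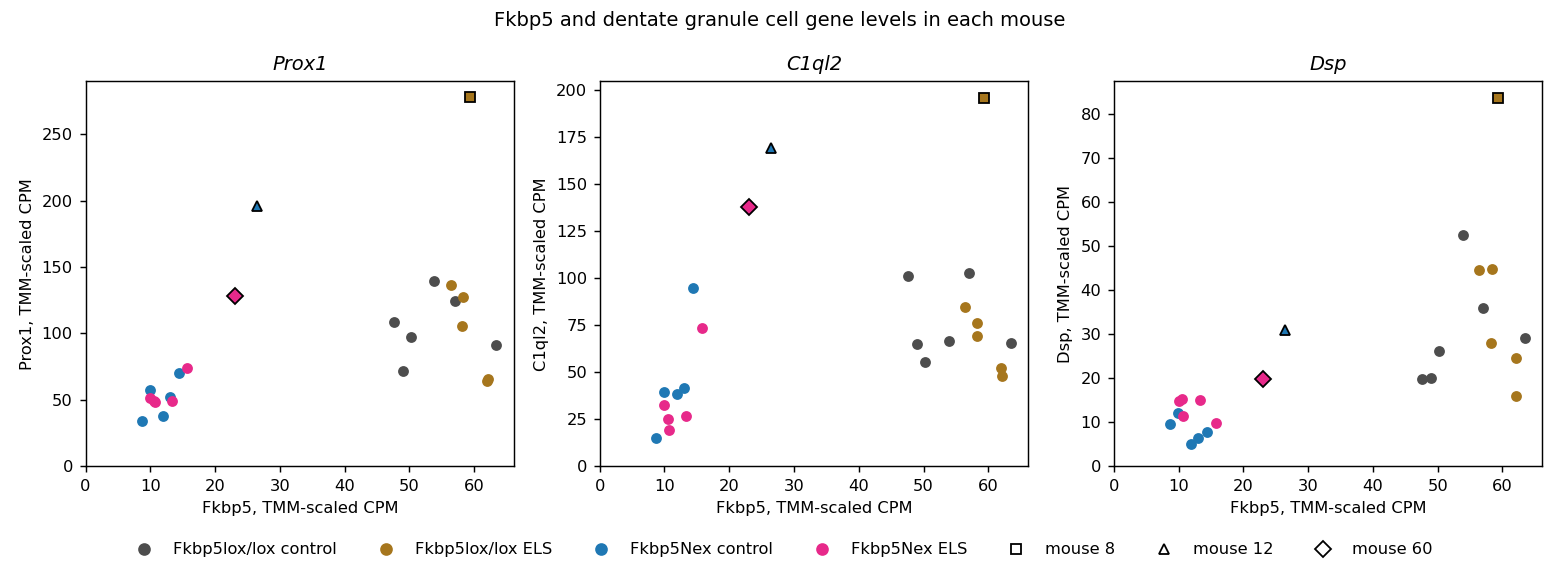
Prox1, C1ql2 and Dsp against Fkbp5 in each mouse (CPM on linear axes from 0), coloured by group, with mice 8, 12 and 60 marked. In Fkbp5Nex mice (left cluster, at most 26.5 CPM of Fkbp5) Prox1 and C1ql2 are highest in mice 12 and 60, which have most Fkbp5, while in Fkbp5lox/lox mice (right cluster, at least 47.7 CPM) no such order is seen.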

How the data were processed

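Bulk mRNA of hippocampal punches from 24 female mice (4 groups of 6, mapped by their labels) was sequenced as read pairs. The authors deposited raw counts per gene, made with HISAT2 2.0.5 and featureCounts 1.5.0-p3 per the labels and the methods of the study; genome build, annotation and strand setting are not given in the sources used here. All 24 columns were matched to mice by number. The study reports removing 1 sample far from the others in a principal component analysis, without naming it. Whether it is among the 24 mice used here is not known. The labels give no batch and no litter, so neither could be examined.

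From these counts, 16209 of 46983 genes were retained, those reaching 10 reads in all mice of any group, scaled by TMM and tested with edgeR 4.0.16 (glmQLFit and glmQLFTest, R 4.3.3) in a model of 4 group means and 5 surrogate variables (svaseq, sva 3.50.0), with Benjamini-Hochberg adjustment over all genes tested and an FDR of 0.02. CPM are counts scaled to the TMM library size, and log2 CPM used a prior count of 2. On simulated counts for 16209 genes, 188 of 200 altered genes (true log2 difference 1) were found for genotype, 168 of 200 for ELS in Fkbp5lox/lox mice and 141 of 200 for the interaction. The simulated counts needed 0 surrogate variables, so recovery in the real data may be lower. At a depth of 18347283 to 26555623 reads, counting error is largest for Tdo2 (36 reads at the lowest). Alternatives were no surrogate variables, DESeq2 1.42.0 with the same surrogate variables, its size factors, filterByExpr, no filter, an FDR of 0.05 and leaving out each mouse. Whenever mice were left out, the 5 surrogate variables were estimated again. Leaving out mice 8, 12 and 60 together and the relation to Fkbp5 were added after seeing the data.

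The 10 genes and all marker lists were chosen with earlier results of these data known. Named beside them are Fkbp5, the 3 lowest and 3 highest of 14 further dentate genes by genotype log2 fold change, and the 10 genes most correlated with the mean of the list. Ttr was named after its value was seen. Positions, exon lengths and overlaps come from GENCODE vM21 (GRCm38) and promoter sequences from RefSeq (GRCm38.p6). P-values of the fits with surrogate variables measure only the spread between mice that these variables left over. For ELS in Fkbp5Nex mice, the SE of Prox1 was 0.10 with them and 0.38 without. Mice were treated as independent although their litters were not known.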

Additional observations from a re-analysis of the deposited data

Results flagged for a closer look

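Single mice lay far from the other 5 of their group in 17 of the 40 combinations of a gene of the list and a group, and in 1 of 4 for Fkbp5. Such a gap, set against the range of the group by Dixon's test, arises by chance in about 1 in 20 groups of normally distributed values. Here it was applied to CPM on a linear scale, whose distribution was not tested. The combinations are also not independent, since the genes vary together, so the 17 of 40 cannot be compared with that share.

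Mouse 12 (Fkbp5Nex control) was far above its group for Prox1 (196 CPM), Glis3 (53 CPM), Dsp (30.9 CPM), Npnt (38.9 CPM), Tdo2 (9.32 CPM) and Plk5 (32.8 CPM), and also for Fkbp5 (26.5 CPM). Mouse 60 (Fkbp5Nex ELS) was far above its group for Prox1 (128 CPM), Glis3 (32.1 CPM), Npnt (23.7 CPM), Lct (32.8 CPM), Plk5 (29.8 CPM) and Fam163b (115 CPM). Mouse 8 (Fkbp5lox/lox ELS) was far above its group for Prox1 (278 CPM), C1ql2 (196 CPM), Plk5 (48.4 CPM) and Fam163b (197 CPM). C1ql3 in mouse 44 (Fkbp5lox/lox control) was 59 CPM, the remaining case. All of these were the highest and none the lowest of their group.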

How the results depend on the processing

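The counts of the 10 genes called for ELS in either genotype and for the interaction were 0 under every alternative run, with adjusted p of at least 0.704, 0.974 and 0.806 for ELS in Fkbp5lox/lox mice, ELS in Fkbp5Nex mice and the interaction. The median genotype log2 fold change of the list stayed negative, from -0.60 (without mouse 8) to -0.38 (without mouse 12) when each mouse was left out. Of the 14 further dentate genes, 0 to 1 were called for genotype without single mice, and DESeq2 called 3. Trpc6, Stxbp6 and Rfx3, not called in edgeR, had adjusted p of 0.0079, 0.0052 and 0.0039 in DESeq2, and Trpc6 0.019 without mouse 32.

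Signs turned mainly without surrogate variables, and the cause was not tested. The log2 fold change for ELS in Fkbp5lox/lox mice was then Prox1 0.30, Glis3 0.19, Dsp 0.40, Npnt 0.30, C1ql2 0.21, C1ql3 0.34, Tdo2 0.34, Lct 0.27 and Plk5 0.19. For ELS in Fkbp5Nex mice it was Prox1 -0.16, Glis3 -0.36, Npnt -0.13, C1ql2 -0.34 and Plk5 -0.23, and for the interaction Prox1 0.46, Glis3 0.56, Dsp 0.14, Npnt 0.43, C1ql2 0.55, C1ql3 0.27, Tdo2 0.21, Lct 0.15, Plk5 0.42 and Fam163b 0.37. Without mice 8, 12 and 60, ELS in Fkbp5Nex mice gave Glis3 -0.10 and Plk5 -0.21. With no filter on low counts, C1ql3 for ELS in Fkbp5lox/lox mice was 0.0037. Leaving out each mouse gave, for ELS in Fkbp5lox/lox mice, -0.15 to 0.060 (C1ql3) and -0.49 to 0.023 (Lct), for ELS in Fkbp5Nex mice, -0.015 to 0.29 (Glis3) and -0.10 to 0.27 (Plk5), for the interaction, -0.21 to 0.032 (Fam163b), and for genotype, -0.36 to 0.23 (Plk5), -0.45 to 0.0080 (Trpc6), -0.11 to 0.037 (Smad3) and -0.15 to 0.073 (Maml2). No paired analysis was possible because mouse numbers are not shared between groups and the labels give no litter. By the methods of the study, dams were assigned to ELS or control together with their litter. Mice of a group, and littermates of both genotypes, may therefore share a litter, which the tests did not take into account. The number of genes called for genotype was 22 (2 higher and 20 lower), 3 without surrogate variables, 66 with DESeq2, 47 at an FDR of 0.05 and 34 without mice 8, 12 and 60. Leaving out single mice gave 2 (without mouse 12 or mouse 52) to 35 (without mouse 54), with 8 to 14 without mouse 8, 28, 30, 34, 38, 44, 72 or 74.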
